A study of Limonium bicolor with 5 samples.

Results

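The comparison set the late first true leaves of Limonium bicolor, stages D and E, against the young ones, stages A and B, and left out stage C, which lies between them. Its members were 4 of the 5 libraries of the series, chosen by their stage labels, although earlier results of these data were known when the comparison was set. Of the 18327 genes in the deposited table, 17452 were compared, those whose highest value in the 4 libraries was at least 1 RPM (reads per 1000000 reads of the library, with no division by gene length).

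Limonium bicolor is a salt-tolerant plant that secretes salt through multicellular glands in the leaf epidermis, and the series followed its leaf development to find genes of salt gland differentiation. All leaves came from tissue culture, with no salt treatment, genotype or age given in the labels. Stage A leaves were labelled undifferentiated, stage B as having differentiated salt glands, stage D as having a differentiated epidermis and stage E as mature, and stage C, not compared, as having differentiated stomata. Poly(A) RNA was taken from whole leaves, pooled from about 5000 leaves for stage A, 4000 for stage B and 1000 each for stages D and E. Each stage was 1 column of values, called a library here, and the 2 stages of a pair differ in development and are not replicates of each other. The labels say that each stage ran in 2 lanes and call these lanes biological replicates. The table gives 1 value per stage, so any spread between the lanes is unknown. An SE below is that of limma for 2 and 2 stage columns. There each gene's variance is drawn toward that of genes of similar level, so the SE is not the gene's own spread alone.

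A young leaf grows by cell division, which requires copies of the genome and new histones, ribosomes and tubulins. As the leaf matures, divisions stop, cells expand by loosening their walls and filling their vacuoles, chloroplasts take up carbon fixation, and the leaf turns from importing sugar to exporting it through the phloem. Transcription factors of the growth-regulating factor, YABBY, HD-ZIP III and KNOX families are known from Arabidopsis for setting leaf growth, the upper and lower leaf sides and the meristem. Limonium genes are named here by the Arabidopsis locus and description paired with them in the table, and roles given below are those known from Arabidopsis.

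A gene is said to have risen or fallen where both late values lay outside both young values, the means of log2(RPM + 1) differed by at least 1, and the highest of the 4 values reached 5 RPM. By this rule of size, which is not a test, 2293 genes rose, or 13.1% of those compared, and 2632 fell, or 15.1%. Together they were 4925 genes, or 28.2%, while 57.5% of genes had no overlap between the pairs when no minimum size was asked. For 1104 risen and 1396 fallen genes even the closest late and young values lay at least 1 log2 unit apart. The stages within a pair differed too: the median absolute log2 difference over genes was 0.420 between A and B and 0.567 between D and E. Between the pairs it was 0.658. This last value compares means of 2 libraries and the others single libraries, so they are not measured alike.

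As a second reading, limma set the difference between the pairs against the spread within them and called 2121 genes at an adjusted p under 0.05 (Benjamini-Hochberg), or 12.2%, of which 993 were higher in the late pair, 5.69%, and 1128 lower, 6.46%. That spread holds stage difference and library error together, so these p-values are no replicate check of a stage, and an exact permutation test of 2 libraries against 2 cannot go below a two-sided p of 0.333. Of the limma calls 2059 had also risen or fallen by the rule of size. Both use the same 4 libraries and the same difference, so this overlap is no independent support. The limma count was 645 without stage A and 998 without stage B. With stage C added to the late pair limma called 0 genes, with 2537 at an unadjusted p under 0.05, and edgeR on the recovered reads also called 0, with 2624 at an unadjusted p under 0.05.

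**Figure D1:**
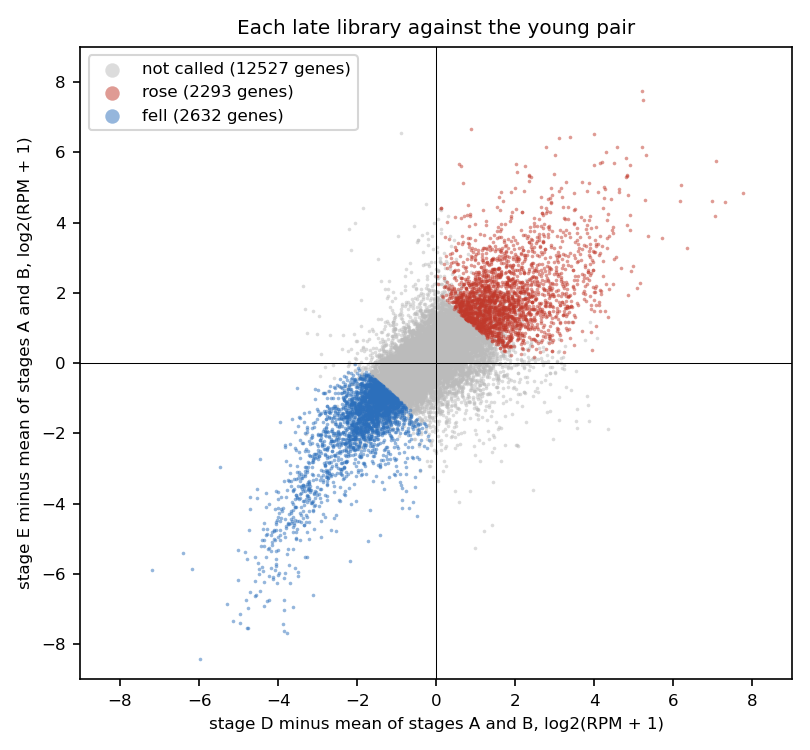
Each point is 1 of 17452 compared genes, placed by its log2(RPM + 1) for stage D (horizontal) and for stage E (vertical), each minus the mean of stages A and B. The 2293 genes that rose lie in the upper right, the 2632 that fell in the lower left of the plot.

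The libraries held between 5939374 reads (stage A) and 16556653 reads (stage B), with 16367754 for stage D and 12945184 for stage E, so 3 reads were worth 0.505 RPM in stage A and 0.181 to 0.232 RPM in the other 3. The median late minus young difference over all compared genes was -0.113 on the log2 scale, which median-of-ratios scaling moved to 0.0129 and TMM scaling to 0.0307. List medians are therefore also given relative to all genes. With the deposited scale 46.6% of called genes were higher in the late pair, against 54.9% with median-of-ratios and 55.9% with TMM scaling. The 100 most abundant genes held 14.98% and 12.1% of reads in stages A and B and 26.1% and 16.7% in stages D and E.

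Counts within a gene list are to be read against the 13.1% of all compared genes that rose and the 15.1% that fell. Histones and genes of DNA replication had the lowest median differences of the 42 gene lists examined. Of the 41 measured genes of DNA replication, 39 fell and 0 rose, limma called 39 lower, and the members had a median difference of -3.44 (-3.33 relative to all genes). Of 47 measured core and linker histones, 45 were compared and 40 fell, with a median of -3.65 (-3.54 relative to all genes). Summed over members, the replication genes came to 15082 and 9855 RPM in stages A and B and 968 and 878 RPM in stages D and E. The histone sum was 17050.3 and 22371 RPM in stages A and B and 1704 and 809.8 RPM in stages D and E. In whole-leaf RNA, fewer dividing cells and less RNA per cell cannot be told apart.

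Topoisomerase II, which untangles replicated chromosomes, measured 1563 and 883 RPM in stages A and B and 36.4 and 5.95 RPM in stages D and E. Both late libraries lay far under both young ones, and stage E was again below stage D. Its late minus young difference was -6.19 ± 0.71 (SE, n = 2 and 2 libraries; limma adjusted p = 0.000728), and even stage B exceeded stage D 24.2-fold (95% interval 22.3 to 26.4), an interval that covers counting error only. The large subunit B of replication protein A, which coats single-stranded DNA, measured 1013 and 470.4 RPM in stages A and B and 16.6 and 4.94 RPM in stages D and E. Its closest stages, B and D, differed 28.3-fold (95% interval 25.1 to 32.1). MCM helicase genes, which open the DNA ahead of the fork, followed the same order. AT2G16440 measured 869 and 612 RPM in stages A and B and 52.5 and 2.55 RPM in stages D and E and AT2G07690 measured 1246 and 735 RPM in stages A and B and 64.5 and 4.56 RPM in stages D and E. For both, stage D lay between the young libraries and stage E, which was under 5 RPM. Among the histones, AT3G53650 measured 1369 and 1348 RPM in stages A and B and 84.9 and 20.5 RPM in stages D and E, and the pairs lay apart by 15.9-fold (95% interval 15.05 to 16.8) at their closest.

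Of 61 measured cyclins and cyclin-dependent kinases, 58 were compared, 33 fell and 5 rose, with a median of -1.61 (-1.50 relative to all genes). Cyclin B2;1, a mitotic cyclin, measured 319 and 233 RPM in stages A and B and 6.72 and 0.695 RPM in stages D and E. The kinase CDKB2;2, which acts at the entry into mitosis, measured 319 and 345 RPM in stages A and B and 11.2 and 0.772 RPM in stages D and E. For both genes stage E lay under 1 RPM. Among the 5 that rose, cyclin P4;1 measured 4.88 and 3.99 RPM in stages A and B and 73.9 and 53.7 RPM in stages D and E, and the CDK inhibitor AT1G49620, of a family that restrains these kinases, measured 3.37 and 6.76 RPM in stages A and B and 30.2 and 23.3 RPM in stages D and E. A second inhibitor, AT2G23430, singled out after its values were seen, measured 0.842 and 3.50 RPM in stages A and B and 12.8 and 10.8 RPM in stages D and E. The rise of cyclin P4;1 was 3.56 ± 0.48 on the log2 scale (SE, n = 2 and 2 libraries; limma adjusted p = 0.00124).

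Of 58 measured kinesins, tubulins and microtubule proteins, 57 were compared, 30 fell and 3 rose (median -1.08, or -0.97 relative to all genes). The kinesin AT1G72250, a microtubule motor, measured 318 and 197 RPM in stages A and B and 10.1 and 2.94 RPM in stages D and E. The syntaxin KNOLLE, which fuses vesicles at the forming cell plate, measured 63.1 and 94.04 RPM in stages A and B and 5.99 and 7.65 RPM in stages D and E. In the wider list of SNAREs and exocyst subunits, of 84 measured genes 77 were compared, 2 rose and 4 fell, with a median of -0.07 that turned positive under both other scalings. Syntaxin 121, a plasma membrane SNARE, was one of the 2 that rose and measured 2.19 and 1.69 RPM in stages A and B and 2.75 and 24.3 RPM in stages D and E, and without stage E it was not called.

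Leaf growth, polarity and meristem factors fell as a group, with 24 of 30 measured members lower and 0 higher, 15 called lower by limma, and a median of -1.75 (-1.64 relative to all genes). The growth-regulating factors, which prolong cell proliferation in leaves, all fell: factor 5 measured 74.1 and 67.6 RPM in stages A and B and 3.36 and 2.01 RPM in stages D and E, factor 6 17.5 and 19.7 RPM in stages A and B and 0.611 and 0.618 RPM in stages D and E and factor 9 11.6 and 9.42 RPM in stages A and B and 1.16 and 1.39 RPM in stages D and E. Both late values of these 3 genes lay under 4 RPM. Factors 1, 3, 4 and 8 lay below 11 RPM in every library and were not called with a pseudocount of 5. AINTEGUMENTA (ANT), which keeps cells competent to divide, measured 414 and 169 RPM in stages A and B and 19.4 and 52.5 RPM in stages D and E, and stage E lay above stage D.

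The YABBY factors, active on the lower side of young leaves, also fell. YAB3 measured 29.1 and 34.7 RPM in stages A and B and 0.244 and 0.850 RPM in stages D and E, and FIL measured 68.9 and 77.6 RPM in stages A and B and 4.64 and 6.26 RPM in stages D and E. The pairs of FIL lay apart by 11.01-fold (95% interval 8.65 to 14.1). YAB5 measured 212 and 161 RPM in stages A and B and 62.8 and 47.1 RPM in stages D and E and YAB2 95.6 and 91.7 RPM in stages A and B and 34.6 and 33.9 RPM in stages D and E, with smaller falls. HD-ZIP III factors of the upper side fell too: PHB measured 50.01 and 58.04 RPM in stages A and B and 12.8 and 12.98 RPM in stages D and E and REV 33.00 and 35.3 RPM in stages A and B and 8.31 and 9.97 RPM in stages D and E. The boundary factors CUC1 and CUC2, which separate organs, fell, CUC2 from 21.2 and 10.4 RPM in stages A and B to 1.16 and 2.16 in stages D and E.

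Not every member of the list fell. AS2, KAN1 and KAN2, which set leaf sides, and the meristem factor KNAT1 had overlapping pairs. CUC3 and KNAT6 did not overlap but stayed below 5 RPM in all 4 libraries. The meristem factor STM measured 7.41 and 0.544 RPM in stages A and B and 0.0611 and 0.0772 RPM in stages D and E, so its fall rested on stage A and was not called without it. KNAT1 was at 7.41 RPM in stage A and at 1.16 RPM in stage E.

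**Figure D2:**
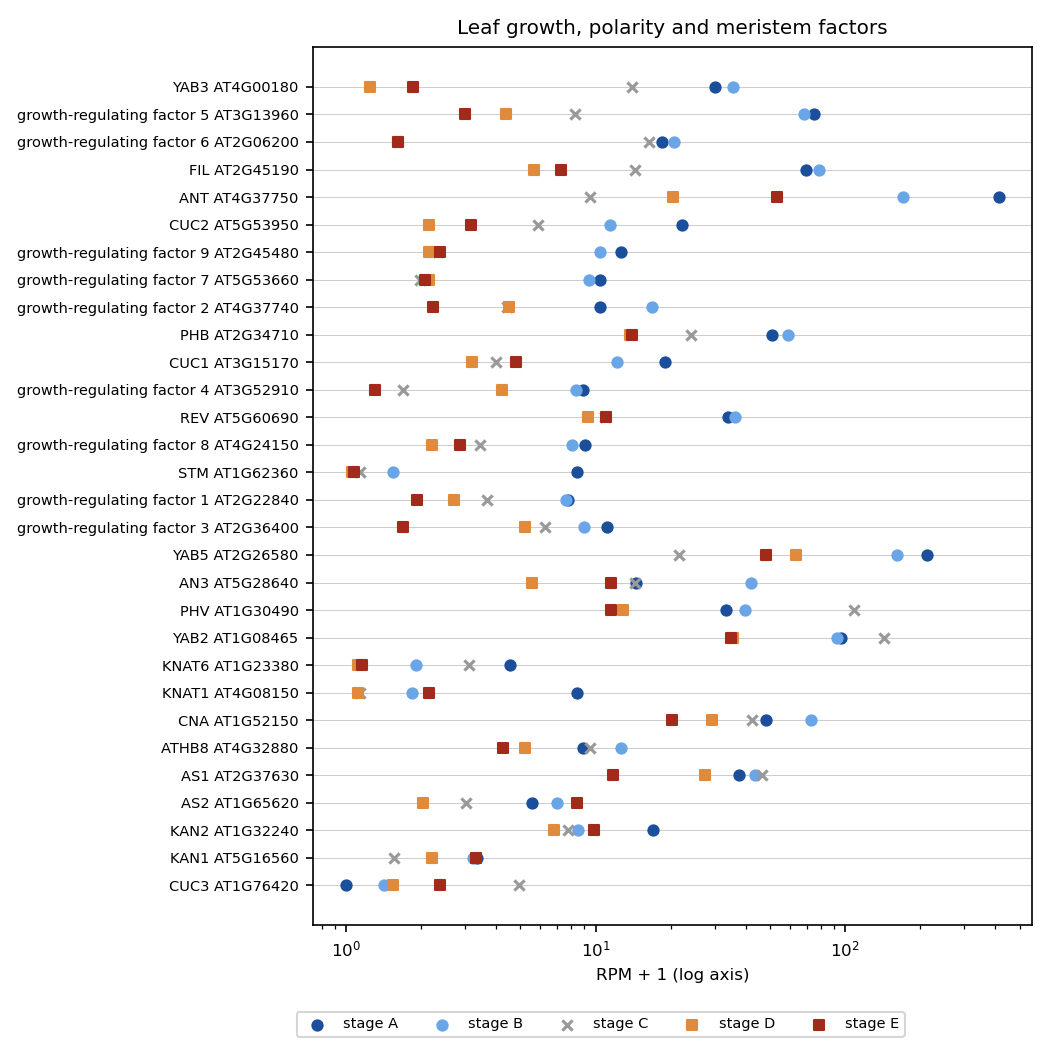
RPM + 1 of the 30 measured leaf growth, polarity and meristem factors on a log axis, 1 row per gene in order of the late minus young difference, with 1 point per library. For the 24 that fell, the blue points of stages A and B lie to the right of the orange and red squares of stages D and E, while grey crosses mark stage C, which was not compared.

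Many genes of protein synthesis and turnover fell. Of 302 measured ribosomal proteins of nuclear loci, 299 were compared, 201 fell and 9 rose, with a median of -1.54 (-1.42 relative to all genes), and limma called 129 lower. Their sum was 47492 and 64761 RPM in stages A and B and 23689 and 23341 RPM in stages D and E. Ribosomal protein L23AA, of the large cytosolic subunit, measured 969.8 and 503 RPM in stages A and B and 130.4 and 136 RPM in stages D and E. Among the 9 that rose, AT1G68660, described as ribosomal protein L12 or ATP-dependent Clp protease adaptor, measured 10.1 and 31.2 RPM in stages A and B and 136 and 124 RPM in stages D and E, and AT5G24490, a putative 30S protein and so of plastid type, measured 296 and 443 RPM in stages A and B and 768 and 1826 RPM in stages D and E.

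Of 52 translation initiation and elongation factors, 51 were compared, 18 fell and 3 rose (median -0.84, or -0.73 relative to all genes). The initiation factor AT5G25780 measured 349.5 and 346 RPM in stages A and B and 102 and 106 RPM in stages D and E. Of 42 proteasome subunits 26 fell and 0 rose (median -1.09, or -0.97 relative to all genes), but 16 fell with median-of-ratios and with TMM scaling. The 20S subunit PAA2, part of the proteolytic core, measured 252 and 224 RPM in stages A and B and 75.9 and 76.1 RPM in stages D and E. Pentatricopeptide repeat proteins, which process organelle RNA, fell at about the share of all genes: of 237 members 31 fell and 8 rose (median -0.57), and 18 fell with median-of-ratios scaling. By the same rule with stage D as the only late library 106 of them were lower, where 21.1% of all compared genes were, and with stage E as the only one 4, where 13.8% were.

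Heat shock proteins and J-proteins were called at about the shares of all genes: of 177 measured genes 175 were compared, 22 rose and 31 fell, or 12.6% and 17.7% (median -0.19). The J-protein AT1G80920 rose from 28.5 and 41.6 RPM in stages A and B to 295 and 437 in stages D and E. HSP60-3A, a mitochondrial chaperonin, fell from 73.6 and 67.6 RPM to 9.96 and 28.1.

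The flavonoid pathway fell: of 23 measured genes 20 were compared, 0 rose and 16 fell, with a median of -1.60 (-1.48 relative to all genes). Leucoanthocyanidin dioxygenase, a late enzyme of anthocyanin synthesis, measured 1081 and 569 RPM in stages A and B and 157 and 57.1 RPM in stages D and E, a difference of -3.04 ± 0.59 (SE, n = 2 and 2 libraries; limma adjusted p = 0.00834). Flavonol synthase 3 measured 326 and 236 RPM in stages A and B and 104 and 8.27 RPM in stages D and E, with stage D closer to the young pair than stage E. Phenylalanine ammonia-lyase 2, which opens the phenylpropanoid pathway, measured 1685 and 1008 RPM in stages A and B and 900.0 and 113 RPM in stages D and E. Stage D lay close below stage B, and neither this gene nor phenylalanine ammonia-lyase 4 was called without stage E or with other scalings.

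Other single genes fell as far or further. The largest fall by the naming rule was a thaumatin-like gene, AT2G28790, of a family named for pathogenesis-related proteins, at 1448 and 1116 RPM in stages A and B and 19.3 and 2.70 RPM in stages D and E. Its difference was -7.20 ± 0.69 (SE, n = 2 and 2 libraries; limma adjusted p = 0.00071). KLU, a cytochrome P450 that extends the growth of plant organs, measured 558 and 128 RPM in stages A and B and 2.14 and 5.33 RPM in stages D and E, and its relative AT1G74110 measured 418 and 172 RPM in stages A and B and 0.855 and 3.55 RPM in stages D and E. For both, stage E lay above stage D by more than 1 log2 unit. The PLATZ factor AT1G31040 measured 129.8 and 49.5 RPM in stages A and B and 0.122 and 0.386 RPM in stages D and E, where stage D was under the floor of 3 reads. The closest pair of stages, B and E, differed 128-fold (95% interval 54.7 to 396).

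**Figure D3:**
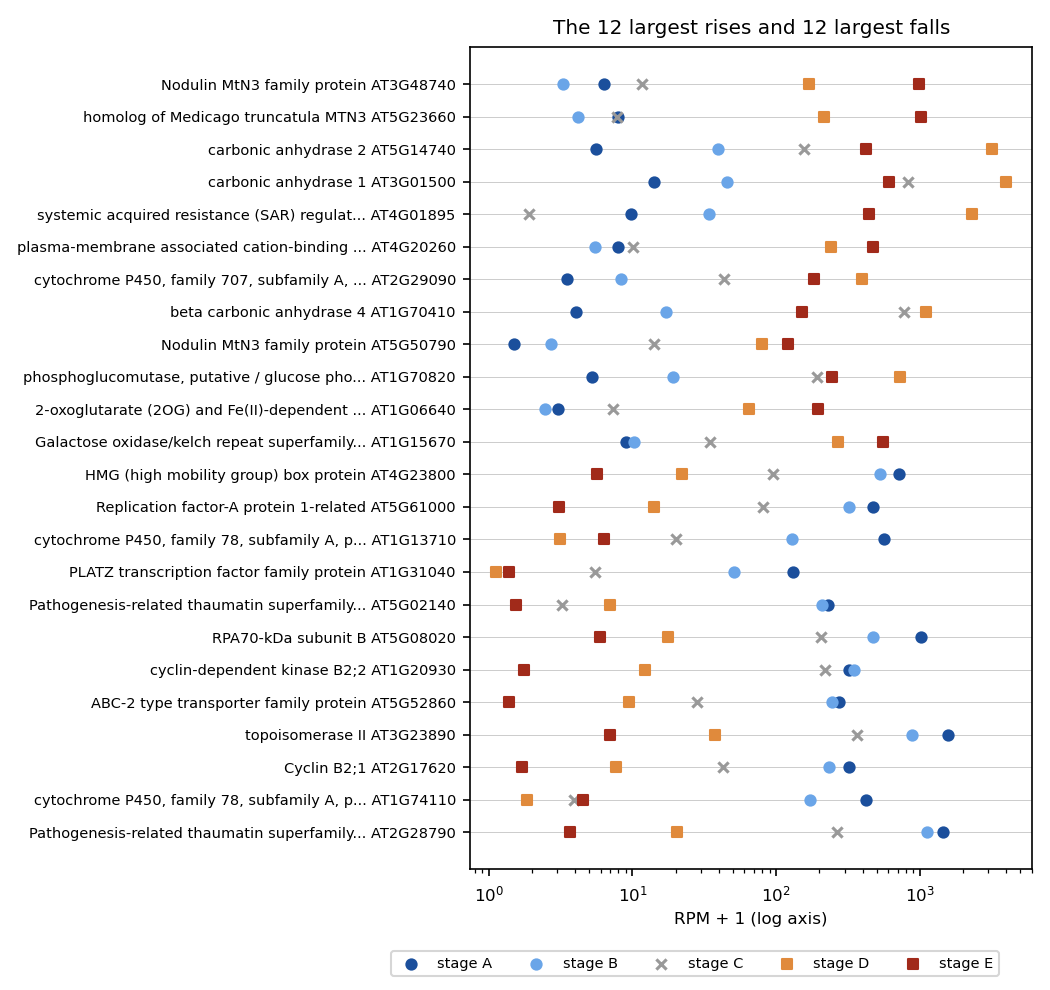
RPM + 1 on a log axis for the 12 named genes with the largest rise (upper rows) and the 12 with the largest fall (lower rows), 1 point per library. In the upper rows both squares of stages D and E lie to the right of both circles of stages A and B, in the lower rows to the left, and grey crosses mark stage C, which was not compared.

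Genes of carbon fixation and photorespiration rose most often of the 42 lists. Of 39 members 31 rose and 0 fell, limma called 25 higher, and the members had a median of 2.40 (2.51 relative to all genes). Their sum was 2994 and 7017 RPM in stages A and B and 68171 and 23730.3 RPM in stages D and E. Carbonic anhydrase 1, a chloroplast enzyme that interconverts carbon dioxide and bicarbonate, measured 13.1 and 44.3 RPM in stages A and B and 4009 and 611 RPM in stages D and E. Carbonic anhydrase 2 measured 4.55 and 38.1 RPM in stages A and B and 3179 and 425 RPM in stages D and E and beta carbonic anhydrase 4 measured 3.03 and 16.2 RPM in stages A and B and 1098 and 152 RPM in stages D and E. In all 3 genes stage D was the highest library and stage E lay between it and the young pair. The difference of carbonic anhydrase 2 was 6.30 ± 0.98 (SE, n = 2 and 2 libraries; limma adjusted p = 0.00252). Rubisco activase (RCA), which keeps the carbon-fixing enzyme active, measured 326 and 1185 RPM in stages A and B and 25701 and 7656 RPM in stages D and E, and the Rubisco small subunit RBCS1A measured 66.2 and 86.1 RPM in stages A and B and 849.7 and 306 RPM in stages D and E. These last 2 genes were the mesophyll markers, present in all 4 libraries, as the leaf label implies. Both rose with the list, and the part of mesophyll content in the result was not tested.

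Photosystem and antenna genes of the nucleus rose in 40 of 66 cases and fell in 0 (median 1.71, or 1.82 relative to all genes). Their sum was 7055 and 16536 RPM in stages A and B and 87434 and 21389 RPM in stages D and E, so stage E held far less than stage D. With stage D as the only late library 61 members were higher and 0 lower, beside 13.2% and 21.1% of all compared genes. With stage E as the only one 32 were higher and 6 lower, beside 16.4% and 13.8%. The photosystem I P subunit measured 31.3 and 61.5 RPM in stages A and B and 1366 and 278 RPM in stages D and E. PsbQ-like 2 measured 25.6 and 73.7 RPM in stages A and B and 374 and 399.8 RPM in stages D and E, with the late stages close together. Of 23 genes of chlorophyll and tetrapyrrole metabolism 2 rose and 0 fell (median 0.91), and 6 rose with either other scaling. Ferrochelatase 2, which inserts iron to make heme, measured 109 and 152 RPM in stages A and B and 303 and 451 RPM in stages D and E. Unlike this gene, the list sum was lower in stage E than in stage D. That sum was 1644 and 3185 RPM in stages A and B and 8657 and 2774 RPM in stages D and E.

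Loci of the plastid genome rose in 26 of 87 cases and fell in 4 (median 0.44, or 0.55 relative to all genes). Their sum was 2502 and 2069 RPM in stages A and B and 7785 and 13442 RPM in stages D and E, and stage E was highest, the reverse of the nuclear photosystem genes. The photosystem II reaction center gene ATCG00020 measured 14.1 and 24.3 RPM in stages A and B and 98.2 and 801 RPM in stages D and E, and ATCG00270 measured 10.3 and 39.6 RPM in stages A and B and 309.5 and 358 RPM in stages D and E. The ribosomal protein L2 gene fell and is listed at 2 loci with identical values, 19.03 and 3.44 RPM in stages A and B and 1.59 and 2.78 RPM in stages D and E, so its fall rested on stage A. Plastid messenger RNA mostly lacks long poly(A) tails, so poly(A) selection takes it incompletely.

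Sugar carriers rose with a median of 2.15 (2.27 relative to all genes): of 35 measured genes 33 were compared, 22 rose and 0 fell, with 19 called higher by limma. The sum of members was 386 and 406 RPM in stages A and B and 1735 and 5559 RPM in stages D and E. The largest rise of any named gene was SWEET11, a MtN3 family carrier that releases sucrose for phloem loading, at 5.39 and 2.30 RPM in stages A and B and 169 and 992 RPM in stages D and E. Its difference was 6.48 ± 0.73 (SE, n = 2 and 2 libraries; limma adjusted p = 0.000711), and stage D exceeded stage A 31.3-fold (95% interval 22.1 to 45.9). SWEET12, its partner in loading, measured 6.90 and 3.20 RPM in stages A and B and 215 and 1026 RPM in stages D and E, and SWEET10 measured 0.505 and 1.69 RPM in stages A and B and 79.3 and 120.4 RPM in stages D and E. SWEET15, also called senescence-associated gene 29, measured 6.90 and 2.84 RPM in stages A and B and 86.3 and 501 RPM in stages D and E, and SWEET9, known from nectaries, measured 9.09 and 3.44 RPM in stages A and B and 52.8 and 402 RPM in stages D and E. All 5 genes were higher in stage E than in stage D, and since they belong to 1 family, reads could have been shared between them.

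The phloem markers rose beside them. All 3 measured of 4 listed were higher, the sucrose carrier SUC2 at 10.6 and 13.6 RPM in stages A and B and 51.2 and 147 RPM in stages D and E, the phloem identity factor APL at 2.69 and 1.45 RPM in stages A and B and 7.82 and 15.99 RPM in stages D and E and the sieve element protein SEOB at 7.91 and 22.5 RPM in stages A and B and 208 and 122 RPM in stages D and E. The sum of the phloem markers was 21.2 and 37.5 RPM in stages A and B and 267 and 285 RPM in stages D and E, and PP2-A1 was not measured. Their part in the rise of sugar carriers was not tested.

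Nitrogen carriers rose in part: of 84 measured genes 82 were compared, 37 rose and 2 fell (median 1.11, or 1.22 relative to all genes). Nitrate transporter 2.2, of the high-affinity family, measured 0 and 1.09 RPM in stages A and B and 40.9 and 38.9 RPM in stages D and E, and its chromosomal neighbour 2:1 measured 1.01 and 3.26 RPM in stages A and B and 43.3 and 41.4 RPM in stages D and E. Transporters 2.4 and 2.3, another pair of neighbours, measured 0.842 and 1.51 RPM in stages A and B and 42.1 and 35.1 RPM in stages D and E, and 0.505 and 1.03 RPM in stages A and B and 27.7 and 24.8 RPM in stages D and E. In each of these 4 genes the late stages lay close together and far above the young ones, and as close members of 1 family their separate counts are uncertain. The difference of transporter 2.4 was 4.20 ± 0.50 (SE, n = 2 and 2 libraries; limma adjusted p = 0.000788). The amino acid transporter AT2G01170 fell, at 36.5 and 44.7 RPM in stages A and B and 12.2 and 8.34 RPM in stages D and E.

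Of the 45 measured carriers of sodium, potassium and chloride, 44 were compared, 8 rose and 1 fell, or 18.2% and 2.27% (median 0.35, or 0.47 relative to all genes). HKT1, which takes sodium out of the xylem stream, measured 3.20 and 3.62 RPM in stages A and B and 21.5 and 161 RPM in stages D and E, a difference of 3.78 ± 0.77 (SE, n = 2 and 2 libraries; limma adjusted p = 0.0115). Chloride channel A, which loads nitrate into the vacuole, measured 6.40 and 17.5 RPM in stages A and B and 105 and 45.3 RPM in stages D and E, and chloride channel B 18.4 and 25.9 RPM in stages A and B and 142 and 61.6 RPM in stages D and E. The outward potassium channel GORK of guard cells fell, at 74.9 and 37.7 RPM in stages A and B and 15.1 and 23.5 RPM in stages D and E, and was not called without stage A. Of 33 proton pump genes 6 rose and 0 fell (median 0.11), a share of 18.2% higher, among them the plasma membrane H(+)-ATPases 4, 5 and 11. H(+)-ATPase 5 measured 32.5 and 46.3 RPM in stages A and B and 153 and 276 RPM in stages D and E and H(+)-ATPase 4 225 and 249 RPM in stages A and B and 591 and 1023 RPM in stages D and E.

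Metal carriers rose in several cases in stage E above all: of 40 measured genes 39 were compared, 16 rose and 1 fell (median 0.81, or 0.93 relative to all genes). The zinc carrier ZIP2, listed as ZRT/IRT-like protein 2, measured 2.36 and 1.45 RPM in stages A and B and 4.28 and 293 RPM in stages D and E, and zinc transporter 11 measured 3.87 and 4.53 RPM in stages A and B and 6.96 and 255 RPM in stages D and E. The ferric reductases 4 and 5 measured 0 and 0.362 RPM in stages A and B and 0.855 and 40.2 RPM in stages D and E, and 0 and 0.785 RPM in stages A and B and 0.978 and 66.4 RPM in stages D and E. None of these 4 was called without stage E. Ferric reductase 7, which supplies iron to chloroplasts, rose in both late stages, at 15.5 and 14.8 RPM in stages A and B and 193 and 119 RPM in stages D and E. Aquaporins, the water channels, rose in 14 of 31 compared cases of 34 measured and fell in 0 (median 1.04, or 1.15 relative to all genes). The plasma membrane aquaporin 1A measured 374 and 1416 RPM in stages A and B and 5930.1 and 3462 RPM in stages D and E.

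Many wall-loosening genes rose. Of 64 expansins and xyloglucan enzymes 52 were compared, 27 rose and 5 fell, with 25 called higher by limma and a median of 1.43 (1.55 relative to all genes). Expansin A2 measured 13.97 and 22.8 RPM in stages A and B and 135 and 283 RPM in stages D and E, and the xyloglucan endotransglucosylase/hydrolase AT5G57560, which cuts and rejoins wall xyloglucan, measured 12.8 and 32.7 RPM in stages A and B and 336 and 134 RPM in stages D and E. Expansin B3 was among the 5 that fell, at 149.7 and 120.5 RPM in stages A and B and 53.3 and 10.3 RPM in stages D and E. Pectin enzymes and inhibitors stood below the background in both directions: of 111 measured genes 92 were compared, 7 rose and 6 fell (median -0.17), and 3 fell with other scalings. AT5G47500, a pectin lyase-like protein, fell from 31.99 and 38.8 RPM in stages A and B to 0.855 and 0.232 in stages D and E.

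Secondary wall and lignin genes were also called near the shares of all genes. Of 36 members 6 rose and 6 fell, 16.7% each way (median 0.61), and 3 fell with other scalings. The late stages lay far apart, with a median stage E minus stage D difference of -1.40, so the shares hide differences between them. Ferulic acid 5-hydroxylase 1, of lignin synthesis, measured 5.56 and 18.5 RPM in stages A and B and 159 and 52.4 RPM in stages D and E. The xylem markers rose in 2 of 8 cases, and their sum was 134 and 224 RPM in stages A and B and 559 and 254 RPM in stages D and E. Stage D was thus the highest of the compared libraries, but stage C, not compared, was higher at 621 RPM. Few cuticle and wax lipid genes passed the rule: of 41 measured genes 41 were compared, 4 rose and 3 fell, with a median of -0.02 that turned positive under other scalings. The condensing enzyme 3-ketoacyl-CoA synthase 19 measured 25.8 and 25.3 RPM in stages A and B and 76.5 and 101 RPM in stages D and E. GDSL lipases rose in 11 and fell in 5 of 66 compared cases of 74 measured, 16.7% and 7.58% (median 0.60). The late stages parted in this list, with a median stage E minus stage D difference of -1.04. Its sum was 1946 and 2113 RPM in stages A and B and 3664 and 1768 RPM in stages D and E, so stage E lay below both young stages. Unlike the list median, the member AT3G53100 was higher in stage E, at 3.54 and 7.67 RPM in stages A and B and 35.9 and 93.1 RPM in stages D and E.

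Of the 134 measured auxin genes, 127 were compared, 44 rose and 11 fell (median 0.93, or 1.04 relative to all genes), and limma called 33 higher. The SAUR genes AT1G29460 and AT1G29500, members of a family linked to cell expansion, measured 0.673 and 0.846 RPM in stages A and B and 27.1 and 86.1 RPM in stages D and E, and 3.70 and 3.50 RPM in stages A and B and 79.7 and 237 RPM in stages D and E. Stage D exceeded stage A 21.5-fold (95% interval 14.1 to 34.4) for the second of them, and SAUR copies are similar enough that reads may be shared. MONOPTEROS (MP), an auxin response factor of vein formation, fell, at 44.6 and 58.2 RPM in stages A and B and 7.33 and 9.27 RPM in stages D and E. The auxin-conjugating enzyme AT2G47750 also fell, at 383 and 239 RPM in stages A and B and 25.5 and 20.4 RPM in stages D and E.

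Of the 103 measured genes of abscisic acid and dehydration, 99 were compared, 26 rose and 8 fell (median 0.31, or 0.42 relative to all genes). A dehydrin, AT4G38410, chosen after its values were seen, measured 0.842 and 5.62 RPM in stages A and B and 23.7 and 49.98 RPM in stages D and E. The CYP707A hydroxylases, which inactivate abscisic acid, rose. CYP707A2 measured 2.53 and 7.37 RPM in stages A and B and 397 and 183 RPM in stages D and E, CYP707A4 1.85 and 1.81 RPM in stages A and B and 84.1 and 51.6 RPM in stages D and E and CYP707A1 7.24 and 9.72 RPM in stages A and B and 202 and 129 RPM in stages D and E. All 3 were higher in stage D than in stage E, and the difference of CYP707A2 was 5.64 ± 0.57 (SE, n = 2 and 2 libraries; limma adjusted p = 0.000711). They belong to the cytochrome P450 list. Of the 211 measured members of that list, 196 were compared, 90 rose and 16 fell (median 1.01, or 1.13 relative to all genes). Of the 21 measured jasmonate genes, 20 were compared, 1 rose and 0 fell (median 0.08).

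Enzymes against reactive oxygen rose in part: of 94 measured genes 91 were compared, 23 rose and 4 fell (median 0.58, or 0.69 relative to all genes). Catalase 1, which breaks down hydrogen peroxide, measured 760.3 and 719 RPM in stages A and B and 2004 and 8008 RPM in stages D and E, and catalase 2, the peroxisomal enzyme of photorespiring leaves, measured 1499 and 1483 RPM in stages A and B and 3932 and 14102 RPM in stages D and E. Stage E held several times the stage D level in both. Of the 98 measured cysteine and aspartic proteases, 88 were compared, 23 rose and 8 fell (median 0.46). The vacuolar processing enzyme gamma, which matures vacuolar proteins, measured 62.97 and 46.8 RPM in stages A and B and 185 and 569.9 RPM in stages D and E. Of 11 senescence genes 3 rose and 0 fell (median 0.80), among them NYE1, which acts in chlorophyll breakdown, at 1.68 and 3.02 RPM in stages A and B and 28.2 and 15.4 RPM in stages D and E. Of 17 autophagy genes 2 rose and 0 fell (median 0.27).

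Several patterning genes of the epidermis fell. Of 16 stomatal lineage genes 7 fell and 0 rose (median -0.90, or -0.79 relative to all genes). The receptor kinase ERECTA, which spaces stomata and promotes growth, measured 2415 and 1176 RPM in stages A and B and 62.9 and 119 RPM in stages D and E, a difference of -4.27 ± 0.56 (SE, n = 2 and 2 libraries; limma adjusted p = 0.0011). SPEECHLESS (SPCH), which starts the lineage, measured 11.3 and 26.7 RPM in stages A and B and 0.916 and 0.618 RPM in stages D and E. Of 16 trichome and root hair factors 5 fell and 1 rose (median -0.86). GL1, an activator of trichome formation, measured 31.3 and 11.5 RPM in stages A and B and 4.83 and 1.24 RPM in stages D and E. WER, its relative that sets non-hair cells in roots, measured 161 and 63.4 RPM in stages A and B and 19.6 and 7.11 RPM in stages D and E. MYB23, chosen after its values were seen, measured 113 and 46.6 RPM in stages A and B and 42.6 and 7.26 RPM in stages D and E, and stage B exceeded stage D 1.09-fold (95% interval 0.986 to 1.21), an interval that includes no difference. It was not called without stage E. The single-repeat repressor CAPRICE-like MYB3 rose, at 5.22 and 5.92 RPM in stages A and B and 15.2 and 28.5 RPM in stages D and E.

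Of the 5 epidermal markers 2 fell and 0 rose. The largest fall was in PDF1, at 7.74 and 9.30 RPM in stages A and B and 0.367 and 0 RPM in stages D and E, a difference of -3.02. PDF2 and LTP1 had differences of -0.85 and -0.84, without passing the rule. The pairs of LTP1 overlapped, at 3.70 and 0 RPM in stages A and B and 0 and 0.463 RPM in stages D and E, so its difference rested on stage A. The marker sum was 270.2 and 192 RPM in stages A and B and 223 and 277 RPM in stages D and E. ATML1, which sets epidermal identity, fell, at 58.8 and 51.3 RPM in stages A and B and 20.6 and 34.5 RPM in stages D and E. With a difference of -1.01, ATML1 barely passed the minimum of 1 and lay close to PDF2, which did not pass. The largest part of the sum came from the wax gene FDH, at 154 and 90.2 RPM in stages A and B and 183 and 213 RPM in stages D and E. Of 7 guard cell markers 2 rose and 1 fell, and of 4 measured meristem markers 1 fell and 0 rose, with CLV3 not measured. The meristem markers summed to 53.2 and 38.7 RPM in stages A and B and 22.6 and 24.9 RPM in stages D and E. Most of that sum was CLV1, which was not called (37.4 and 35.7 RPM in A and B, 22.2 and 23.6 in D and E). STM and KNAT1 were already at 0.544 and 0.846 RPM in stage B, from 7.41 RPM each in stage A. The part of the meristem markers in the falls of division and growth genes was not tested. The guard cell markers summed to 243 and 187 RPM in stages A and B and 199 and 469.6 RPM in stages D and E. The largest part of that sum was OST1, which was not called (78.8 and 87.1 RPM in A and B, 91.1 and 271 in D and E).

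Of the 135 measured MYB factors, 104 were compared, 11 rose and 19 fell, 10.6% and 18.3%, near the shares of all genes (median -0.31). MYB48 measured 11.8 and 5.19 RPM in stages A and B and 44.4 and 353 RPM in stages D and E. Of the 72 measured NAC factors, 61 were compared, 13 rose and 5 fell, with 21.3% higher (median 0.35). Of the 25 measured AP2/ERF factors, 18 were compared, 9 rose and 0 fell (median 1.09). Their sum was 31.7 and 37.1 RPM in stages A and B and 58.5 and 184 RPM in stages D and E. The late excess of this sum thus lay mostly in stage E. DREB and EAR motif protein 3, an AP2/ERF repressor, measured 1.52 and 3.68 RPM in stages A and B and 11.7 and 59.5 RPM in stages D and E. Of the 52 measured WRKY factors, 36 were compared, 2 rose and 2 fell (median 0.13). WRKY40, a stress-response factor, measured 3.03 and 0.725 RPM in stages A and B and 3.30 and 47.2 RPM in stages D and E and was not called without stage E. Of 12 clock genes 2 rose, 16.7%, and 0 fell (median 0.16).

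**Figure D4:**
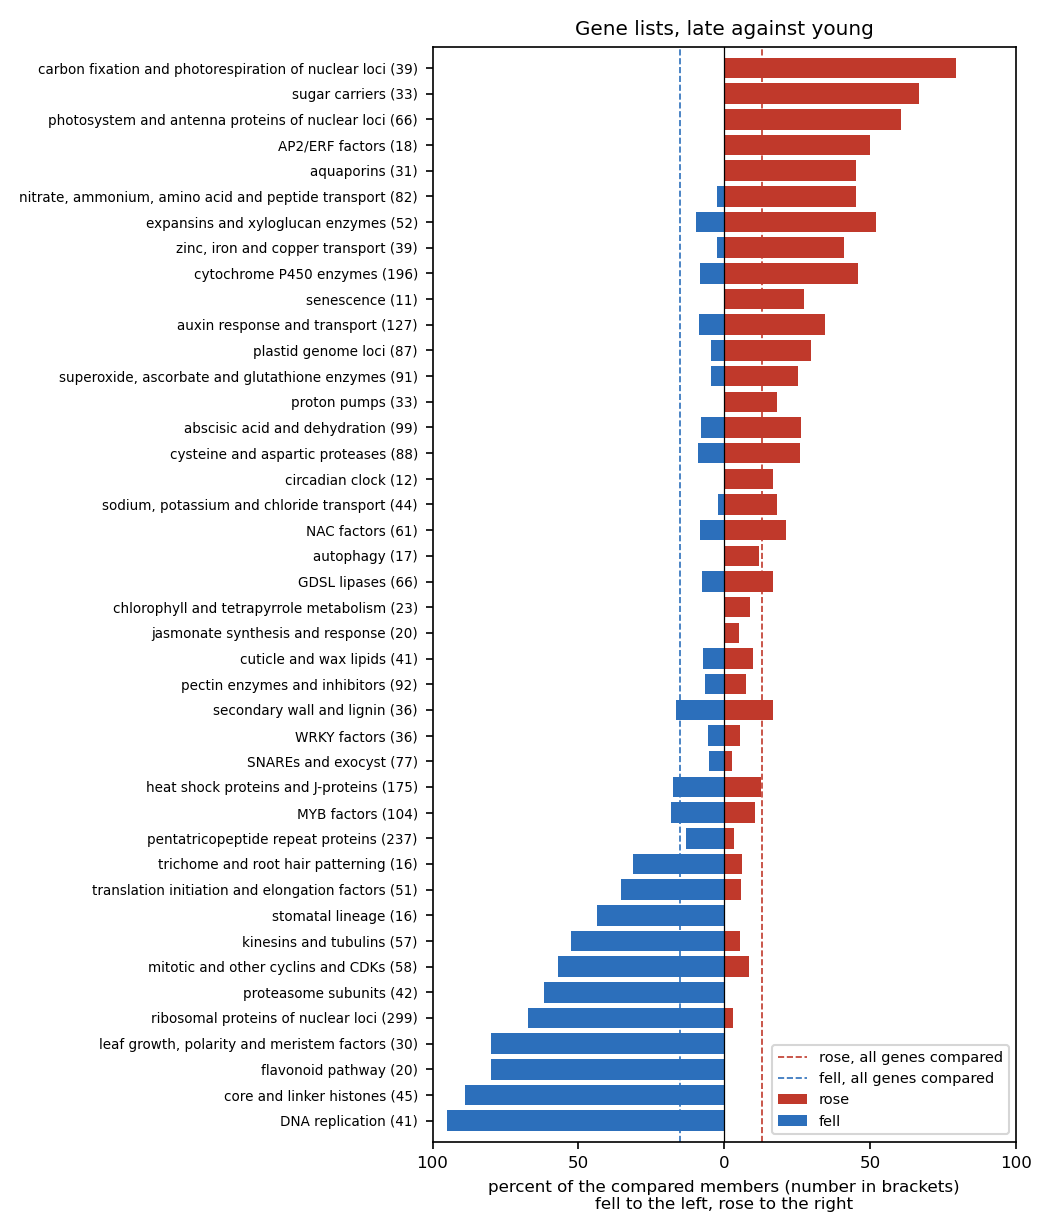
Percent of the compared members of each of the 42 gene lists that rose (right, red) or fell (left, blue), with the number compared in brackets and dashed lines at the share over all compared genes, 13.1% and 15.1%. Carbon fixation, sugar carriers and the photosystems lie at the top, DNA replication, histones and the flavonoid pathway at the bottom.

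Within the late pair, 62.8% of the genes that rose lay within 1 log2 unit between stages D and E, 22.02% were higher in stage E and 15.2% were lower. Of the genes that fell, 79.3% lay within 1 log2 unit, 11.7% were higher in stage E and 9.08% lower. Over all compared genes 15.1% were higher in stage E by at least 1 log2 unit and 8.19% lower. The lists parted here, against a median of 0.308 for stage E minus stage D over all genes. The median was 1.002 for sugar carriers and 0.76 for plastid loci, but -1.66 for nuclear photosystem genes, -1.04 for carbon fixation and -1.40 for secondary wall genes. Among called genes with a name, the largest excess of stage E over D was in ZIP2, ferric reductases 4 and 5, zinc transporter 11 and a glycine-rich protein, AT5G46730, at 5.99 and 138 RPM in stages D and E. The largest excess of D over E was in genes that fell, such as the MCM gene AT2G16440, and in the chaperonin-like RbcX gene AT5G19855, of a family of Rubisco assembly chaperones, at 77.3 and 5.56 RPM.

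**Figure D5:**
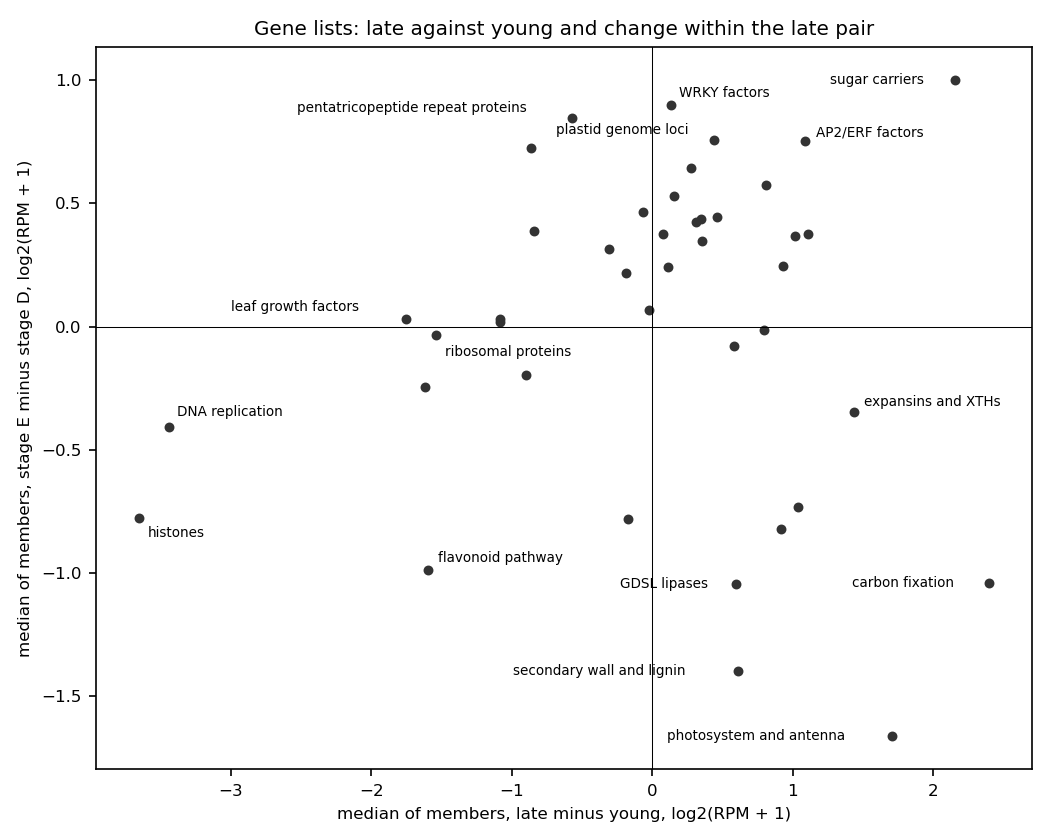
Each point is 1 of the 42 gene lists, placed by the median late minus young difference of its members (horizontal) and their median stage E minus stage D difference (vertical), both in log2(RPM + 1). Sugar carriers lie at the upper right, the photosystem and carbon fixation lists at the lower right, and histones and DNA replication at the left below 0.

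Stage C, which the comparison left out, did not simply lie between the pairs. Of the genes that rose, 39.4% had stage C at or beyond the young level, 32.6% between the pairs and 28.0% at or beyond the late level. Of the genes that fell, 22.9% had it at or beyond the young level, 38.1% between the pairs and 39.0% at or beyond the late level. By the Arabidopsis chromosome of the paired locus, 43.2% of the risen genes of chromosome 1 had stage C at or beyond the late level, against 18.4% of those of chromosome 5. For the fallen genes the order was the reverse, with 26.5% on chromosome 1 and 52.6% on chromosome 5. Chromosome 1 loci thus tended to higher stage C values than chromosome 5 loci in both sets. Chromosome 1 loci held 40.4% of reads in stage C and 24.4 to 28.3% in the 4 compared libraries.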

How the data were processed

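The measurements are RNA-seq of poly(A) RNA from whole first true leaves of Limonium bicolor, 1 column of values per stage (2 lanes, which the labels call biological replicates, are not separated), with stages A and B as the young pair and D and E as the late pair. The deposited table gives 1 value per gene and stage, called RPKM per the file headers, but the deposited values were whole multiples of 1 step per stage (100% within 0.001 reads), so they are RPM, and the reads behind them were recovered as counts from those steps. Which aligner and assembly were used, and where multiply matching reads went, is not given in the sources used here, so members of near-identical families are uncertain, and 76 genes with at least 40 reads shared all their read counts with another gene, 19 of them called. Rows were paired with Arabidopsis loci by the table itself, and symbols were added by hand from general knowledge.

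Differences are means of log2(RPM + 1) over the late pair minus the young pair, and understate the change of low genes. The rule of size is given in the results above. limma 3.58.1 (trend) was fitted over the 17452 genes at 1 RPM or more and adjusted by Benjamini-Hochberg. Its SE is for 2 and 2 libraries and uses the moderated variance, drawn toward that of genes of similar level. edgeR 4.0.16 (quasi-likelihood) and DESeq2 1.42.0 on the recovered reads were alternatives. The fitting code was also run on simulated counts, as a check of the code and of nothing in these data. Intervals beside folds are exact 95% intervals (Clopper-Pearson) of the ratio of the closest late and young libraries. Such intervals and the floor of 3 reads cover counting error only, as reads copied by PCR are no independent molecules.

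The comparison, the markers and the 42 gene lists were chosen with earlier results of these data known. Words that define the lists were trimmed after membership and first counts had been seen, so list counts are descriptions beside the share over all genes and carry no test. Sums over a list weigh long genes more. Genes were named by a rule: the 12 largest rises and 12 largest falls with a descriptive name, up to 3 called members each way per list, all leaf growth factors, the 5 largest differences each way between stages D and E, and markers. Genes chosen after their values were seen were catalase 2, SWEET9, SWEET15, a CDK inhibitor, nitrate transporter 2:1, chloride channel A, a dehydrin, MYB23, and RCA and RBCS1A, which were also set as mesophyll markers. Alternatives were other pseudocounts, minimum values, scalings and tools, and leaving out each library.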

Additional observations from a re-analysis of the deposited data

How the results depend on the processing

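The count of genes called by the rule of size stayed within 1.5 times of 4925 under the following changes. With a pseudocount of 0.1 it was 5199, and with one of 5 it was 3654 (1659 higher, 1995 lower). With no minimum it was 5292, and with one of 20 RPM 3705 (1634 higher, 2071 lower). Median-of-ratios scaling gave 4822 genes and TMM scaling 4803. Leaving out each library in turn gave 4826 to 5992 genes, 2094 to 3000 of them higher and 2407 to 3684 lower. The count moved further, to 1549 (818 higher, 731 lower), when a difference of 2 was asked. It was 10042 (4326 higher, 5716 lower) when no overlap alone sufficed. The limma count of 2121 was 497 (153 higher, 344 lower) without a filter on low values, and leaving out each library gave 645 to 2159 genes, 248 to 994 of them higher and 397 to 1203 lower, where a lone stage is assumed to vary like the remaining pair. edgeR called 1207 genes (646 higher, 561 lower), or 1099 (585 higher, 514 lower) without its filter on low counts, and DESeq2 called 3374, with 1914 higher. TMM scaling gave limma 729 lower genes. With stage C added to the late pair limma called 0 genes and edgeR called 0 genes. The cause of these differences was not tested. The edgeR fits with stage C or without a filter, limma with stage C and limma with TMM scaling were chosen after seeing the data. Over the genes named by the rule no called difference changed sign with another pseudocount or scaling or with a library left out. The rule of size fixed this in advance, so it is no check, and edgeR and DESeq2 were not part of it. Of the 234 genes named, 31 lost their call with a pseudocount of 5, 9 with median-of-ratios scaling and 10 with TMM scaling. Some also lost it when a library was left out. No paired analysis was possible because each stage is 1 library and the stages share no animals, plants or batches that the labels name. Stage A held the fewest reads, so genes under about 0.505 RPM there could not be separated from 0 within its floor.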
